A study of Mus musculus with 6 samples.

Results

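The 10 genes described here encode regulators and outputs of the ATF4-CHOP arm of the integrated stress response: Atf4, Atf5, Ddit3, Cebpb, Trib3, Nupr1, Asns, Chac1, Stc2 and Vldlr. They were taken by gene symbol from 17484 mouse genes in the count tables. All 10 were found, each as 1 row, and all 10 passed the filter on low counts, as did 12755 genes in all. RNA was sequenced in bulk from E14 cells, a mouse embryonic stem cell line of 129/Ola background, kept on gelatin with serum and leukaemia inhibitory factor. One day (24 h) after seeding, cells received 250 µg/mL cycloheximide, an inhibitor of translation elongation, in 0.007% ethanol for 3 h or for 6 h. Control cells received ethanol alone for 9 h, so hours in ethanol and the drug itself cannot be told apart in any comparison with control. From 3 h to 6 h, hours in the drug and in ethanol rose together, so these cannot be told apart there either. Each of the 3 groups had 2 libraries. The labels do not say whether replicates were separate cultures, so p-values measure only the spread between these libraries, which may be technical. All libraries came from 1 cell line.

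In the integrated stress response, kinases that sense missing amino acids, misfolded proteins in the endoplasmic reticulum, double-stranded RNA or lack of haem phosphorylate the initiation factor eIF2. Most initiation then slows, while mRNAs with short upstream open reading frames, such as those of ATF4, ATF5 and CHOP (the product of Ddit3), are translated better. ATF4 binds composite C/EBP-ATF elements as a dimer with C/EBP proteins and drives genes for amino acid supply and tRNA charging. It also drives Ddit3, Chac1 and the feedback gene Trib3. In stem cells the pathway is known for lowering protein synthesis under stress.

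A composite C/EBP-ATF element core, TGATGNAA, was searched on both strands of the RefSeq promoter windows (GRCm38.p6, the mm10 build that the submitters' processing notes name). Each window of 300 bases runs from 250 bases before to 50 after an annotated start. The core was present for 5 of the 10 genes (in 5 of their 12 windows), and in 3.97% of all 32851 windows. No window of the 10 genes held the letters of the ER stress element or of the cAMP response element TGACGTCA, which were searched on both strands too and occurred in 0.119% and 1.79% of all windows. The matches are shown because they let the 5 genes be compared base by base. Each is printed 5′ to 3′ on the strand that reads TGATGNAA, with that core in capitals and 11 bases on each side. The Chac1 site (minus strand, chr2:119351038-119351067) lies at positions -193 to -186 from the start, the Trib3 site (plus strand, chr2:152344028-152344057) at 15 to 22, and the Asns site (minus strand, chr6:7693214-7693243) at -23 to -16. The Nupr1 site (plus strand, chr7:126625562-126625591) lies at -110 to -103 and the Vldlr site (minus strand, chr19:27216809-27216838) at -200 to -193 from the second of 2 annotated starts. All positions are from RefSeq starts. From the GENCODE start of Trib3, further along the minus strand, its core lies upstream of the transcript. The printed sites of Asns, Nupr1 and Vldlr lie inside the GENCODE spans of these genes given below, while that of Chac1 lies upstream of its span.
Chac1: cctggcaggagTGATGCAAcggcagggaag
Trib3: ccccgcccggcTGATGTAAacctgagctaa
Asns: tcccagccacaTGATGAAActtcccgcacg
Nupr1: caagccctgtcTGATGCAAtctggcccttt
Vldlr: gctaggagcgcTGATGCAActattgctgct

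The windows of Chac1 and Trib3 are printed from 250 bases before to 30 after the start, because these are the 2 genes that fell at 6 h. Both are on the strand of the gene, so that the capitals show the reverse complement of the core. The Chac1 window is chr2:119350992-119351271 on the plus strand, and the Trib3 window is chr2:152344031-152344310 on the minus strand.
Chac1: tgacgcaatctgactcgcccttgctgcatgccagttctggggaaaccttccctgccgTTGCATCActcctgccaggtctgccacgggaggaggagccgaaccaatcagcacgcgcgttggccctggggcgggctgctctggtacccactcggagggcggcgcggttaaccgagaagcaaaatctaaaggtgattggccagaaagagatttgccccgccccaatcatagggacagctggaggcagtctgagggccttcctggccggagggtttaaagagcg
Trib3: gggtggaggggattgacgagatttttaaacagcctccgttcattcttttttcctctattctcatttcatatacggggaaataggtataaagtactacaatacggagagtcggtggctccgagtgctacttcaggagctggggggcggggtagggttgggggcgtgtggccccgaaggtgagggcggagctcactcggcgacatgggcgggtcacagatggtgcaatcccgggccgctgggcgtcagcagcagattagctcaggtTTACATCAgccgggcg

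Library totals ran from 9385447 to 27351077 counts and were highest at 6 h. A count of 3 equals 0.110 to 0.320 CPM. The share of mitochondrial transcripts ran from 24.7% to 24.9% in the controls, 18.9% to 19.6% at 3 h and 16.6% to 17.5% at 6 h. The cells carried the RNA of pluripotent cells: 10 markers, among them Pou5f1 and Sox2, summed to 6873 to 7038 CPM in the controls, 7961 to 8226 at 3 h and 5559 to 5748 at 6 h. Of these 10, 2 were called higher at 3 h (against 3.6% of all genes) and 3 lower at 6 h (against 14.3%). Their log2 fold changes were mixed at 3 h, with 6 below 0, 4 above and a median of -0.06. At 6 h all 10 were below 0, with a median of -0.24. Mean CPM of Sox2 was 2441 in the controls, 3901 at 3 h and 2356 at 6 h. In the same order Utf1 was at 1061, 772 and 632 and Nanog at 8.01, 6.45 and 4.84. Fibroblast markers (8 of 10 in the files) summed to at most 14.8 CPM, with Col1a2 and Dcn at 0 in the controls. Primitive endoderm markers summed to 86.3 to 91.7 CPM in the controls, 88.9 to 92.9 CPM at 3 h and 43.3 to 48.3 CPM at 6 h. The lower sum does not stand for most of these markers. At 6 h 6 of the 8 had a log2 fold change above 0 against control, with a median of 0.79. The other 2 were both called lower (25%, against 14.3% of all genes). At 3 h 5 were above 0 and 3 below, with a median of 1.28 and 0 called. Markers of early germ layers summed to 68.4 to 92.6 CPM in the controls, 106 to 132 at 3 h and 80.7 to 93.4 at 6 h. Of 7 tested germ layer markers, 1 was called higher at 3 h (against 3.6% of all genes) and 2 at 6 h (against 14.8%). Of 5 tested fibroblast markers, 0 were called at 3 h (against 4.9% of all genes). At 6 h 1 of these 5 was called higher (20%, against 14.8%). The part of these shifts in the results below was not tested, and in bulk RNA fewer cells of a type and less RNA per cell cannot be told apart.

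After 3 h of cycloheximide, Atf4 and Ddit3 rose and the other 8 genes did not pass the test. After 6 h, Atf4 and Ddit3 were still higher than in the controls, by 1.56-fold and 2.6-fold, while Trib3 and Chac1 fell by 2.69-fold and 2.50-fold. From 3 h to 6 h, Trib3 and Chac1 fell by 3.19-fold and 3.01-fold, and no gene of the 10 rose. The remaining 6 genes, Atf5, Cebpb, Nupr1, Asns, Stc2 and Vldlr, passed in no comparison. Of the 10 genes, 2 were called at 3 h (20%, against 4.9% of all tested genes), both higher (3.6% of all genes were called higher and 1.3% lower). At 6 h, 2 were called higher (20%, against 14.8% of all genes) and 2 lower (20%, against 14.3%), or 4 in either direction (40%, against 29%). Between 6 h and 3 h, 2 were called (20%, against 1.64%), both lower (1.18% of all genes were), and 0 higher (0.455% of all genes). At an unadjusted p under 0.05 the count higher was also 0, as it was with DESeq2 and limma-voom. The median of the 10 was 0.06 on the log2 scale at 3 h, -0.60 at 6 h and -0.35 between them, against 0.02, 0.04 and 0.01 over all tested genes. Without 3 h replicate 1 or without 3 h replicate 2, 0 of the 10 were called at 3 h, and 0 between 6 h and 3 h. Without 6 h replicate 1 or without 6 h replicate 2, 1 was called at 3 h and 0 between 6 h and 3 h, and without either control library 1 was called at 3 h. Calls are those of edgeR's quasi-likelihood test with a Benjamini-Hochberg adjusted p under 0.05 over all 12755 genes. Both comparisons with control share the same 2 control libraries.

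**Figure D1:**
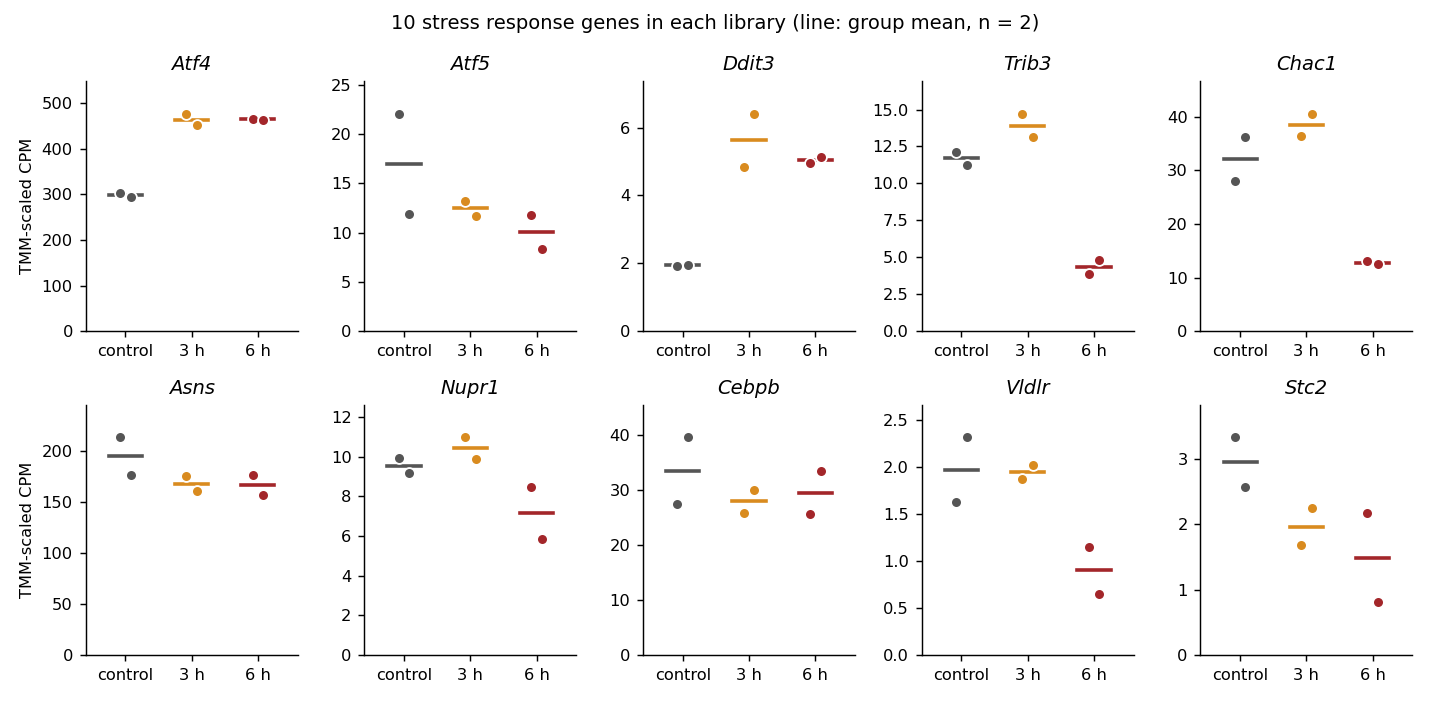
TMM-scaled CPM (vertical axes, each from 0) of the 10 genes in the 2 control, 2 CHX 3 h and 2 CHX 6 h libraries; points are libraries and lines are group means. Both treated groups lie above control for Atf4 and Ddit3, and the 6 h libraries lie below all others for Trib3 and Chac1.

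Atf4 (chr15:80255184-80257541, plus strand) encodes the transcription factor at the centre of the pathway. Its level in CPM, counts scaled to a common library size after TMM, was 302 and 295 in the control libraries, 477 and 451 after 3 h, then 466 and 464 after 6 h. All 4 treated libraries lay above both controls, and the 3 h and 6 h libraries overlapped. Its log2 fold change was 0.64 ± 0.10 (SE) at 3 h (edgeR adjusted p = 0.0107) and 0.64 ± 0.10 (SE) at 6 h (edgeR adjusted p = 0.00288). From 3 h to 6 h it was 0.00, with a 95% interval of -0.22 to 0.22. The rise at 6 h was called under all 16 other settings, which covered scaling, filter, test, design, depth and each library left out. The rise at 3 h was not called without 3 h replicate 1 (0.59, edgeR adjusted p = 0.0952) or without 3 h replicate 2 (0.68, edgeR adjusted p = 0.0694).

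Ddit3 (chr10:127290774-127296288, plus strand) encodes CHOP, a C/EBP family member known for promoting cell death when stress is prolonged. It was sparse, with 26 and 16 counts in the controls, 75 and 111 after 3 h, then 150 and 134 after 6 h. Scaled to CPM these were 1.93 and 1.95 in the controls, 4.84 and 6.41 after 3 h, then 4.95 and 5.13 after 6 h. Every treated library was above both controls, and the 6 h values lay between the 3 h values. Its log2 fold change was 1.54 ± 0.33 (SE) at 3 h (edgeR adjusted p = 0.0379) and 1.38 ± 0.33 (SE) at 6 h (edgeR adjusted p = 0.0158). From 3 h to 6 h the log2 fold change was -0.16, with a 95% interval of -0.82 to 0.50. The 3 h rise was called under only 6 of the 16 other settings, with adjusted p-values from 0.00332 to 0.200 and log2 fold changes from 1.32 to 1.76. It was lost without any 1 of the 6 libraries, and under 4 further settings, among them limma-voom, the 4 libraries fitted alone and thinning to the smallest library's total. The 6 h rise was lost without 6 h replicate 1 (1.40, edgeR adjusted p = 0.0686) or without 6 h replicate 2 (1.35, edgeR adjusted p = 0.0857). The gene Mars overlaps Ddit3 by 68 bases on the opposite strand, and Gm4189 by 15. Whether the counting used strand is not given in the sources used here, so shared reads cannot be told apart. Mars itself fell at 6 h (log2 fold change -0.71, edgeR adjusted p = 0.00762).

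Atf5 (chr7:44812256-44816658, minus strand) encodes a factor related to ATF4 that is known for inducing mitochondrial chaperones. Its CPM was 22.1 and 11.8 in the controls, 13.2 and 11.7 after 3 h, then 11.7 and 8.31 after 6 h. The controls differed from each other more than the treated libraries did, and the lower control lay within the range at 3 h. On the log2 scale the change was -0.46 at 3 h (95% interval -1.154 to 0.23, edgeR adjusted p = 0.383) and -0.77 at 6 h (95% interval -1.46 to -0.09, edgeR adjusted p = 0.0866). Without control replicate 2 the 6 h value was -1.13 and was called (edgeR adjusted p = 0.0129), as it was with no filter. Without control replicate 1 it was -0.24. Atf5 overlaps Nup62 by 571 bases and Il4i1 by 272 bases, both on the opposite strand.

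Cebpb (chr2:167688915-167690418, plus strand), a gene of 1 exon, encodes a C/EBP protein that can pair with ATF4. Its CPM was 27.4 and 39.6 in the controls, 25.9 and 30.0 after 3 h, then 25.6 and 33.5 after 6 h. The 3 groups overlapped. Its log2 fold change was -0.25 at 3 h (95% interval -0.74 to 0.24, edgeR adjusted p = 0.507) and -0.17 at 6 h (95% interval -0.66 to 0.31, edgeR adjusted p = 0.580). Tmem189 overlaps Cebpb by 908 bases on the opposite strand and rose at 6 h (log2 fold change 0.90, edgeR adjusted p = 0.0190).

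Trib3 (chr2:152337422-152344032, minus strand) encodes a pseudokinase that binds ATF4 and CHOP and dampens their activity. It was at 12.2 and 11.2 CPM in the controls, 14.7 and 13.1 after 3 h, then 3.89 and 4.83 after 6 h. Both 3 h libraries lay just above control, while both 6 h libraries lay below all others. At 3 h the log2 fold change of 0.25 did not pass (95% interval -0.24 to 0.74, edgeR adjusted p = 0.511). At 6 h it was -1.43 ± 0.22 (SE) against control (edgeR adjusted p = 0.00325) and -1.67 ± 0.22 (SE) against 3 h (edgeR adjusted p = 0.0106). The fall against control was called under all 16 other settings, with log2 fold changes from -1.59 to -1.07.

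Chac1 (chr2:119351229-119354381, plus strand) encodes an enzyme that degrades glutathione, and is among the best known CHOP and ATF4 targets. Its CPM was 27.9 and 36.1 in the controls, 36.4 and 40.5 after 3 h, then 13.0 and 12.5 after 6 h. The 3 h libraries lay just above the higher control, and the 6 h libraries stood well below the other 4. On the log2 scale the change was 0.27 at 3 h (95% interval -0.11 to 0.66, edgeR adjusted p = 0.357). It was -1.32 ± 0.17 (SE) at 6 h against control (edgeR adjusted p = 0.00160) and -1.59 ± 0.17 (SE) against 3 h (edgeR adjusted p = 0.00497). The call against control held under all 16 settings, with values from -1.50 to -0.96. For Trib3 and Chac1 alike, the call between 6 h and 3 h was lost when any 1 of the 4 libraries compared was left out. The fold changes on the log2 scale then were -1.83 to -1.53 for Trib3 (edgeR adjusted p = 0.0859 to 0.103) and -1.66 to -1.51 for Chac1 (edgeR adjusted p = 0.0517 to 0.0987).

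**Figure D2:**
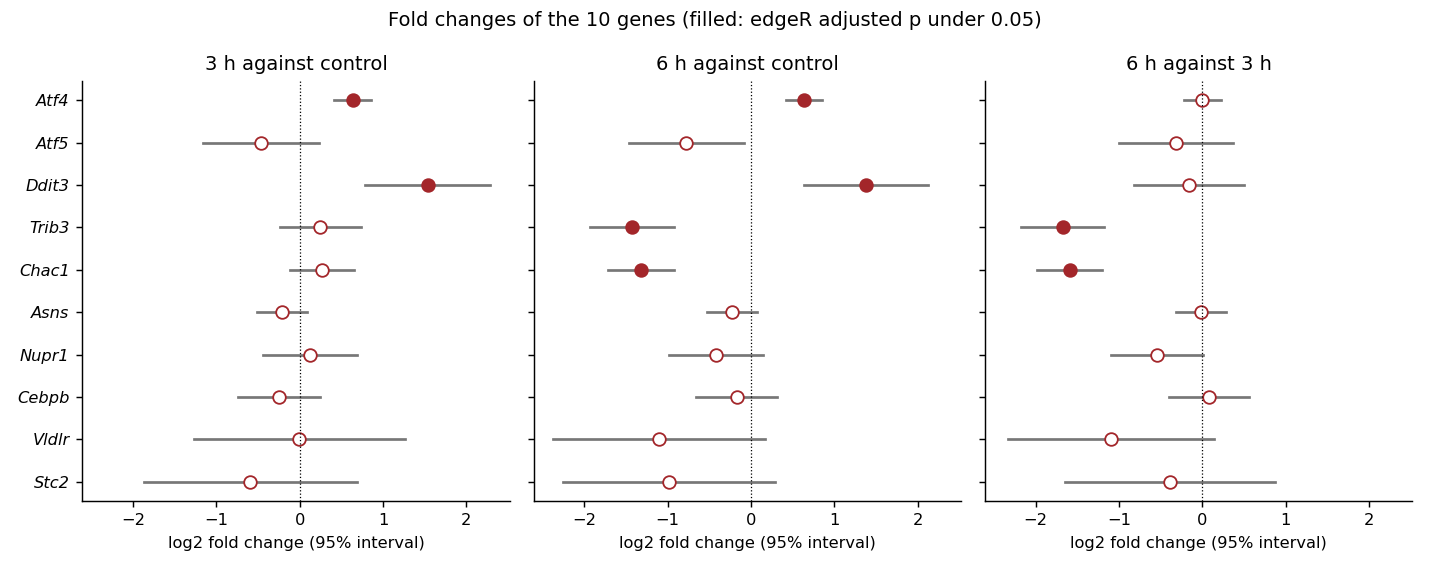
Log2 fold changes of the 10 genes (horizontal axis) in the 3 comparisons, with 95% intervals from the fit; filled points had an edgeR adjusted p under 0.05. Atf4 and Ddit3 lie to the right of 0 at both times, and Trib3 and Chac1 lie left of 0 at 6 h against control and against 3 h.

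Asns (chr6:7675169-7693254, minus strand) encodes asparagine synthetase, and its window holds the C/EBP-ATF core shown above. Its CPM was 213 and 176 in the controls, 175 and 160 after 3 h, then 176 and 156 after 6 h. Control replicate 1 was the highest library, and control replicate 2 was close to the treated ones. On the log2 scale the change was -0.21 at 3 h (95% interval -0.52 to 0.09, edgeR adjusted p = 0.352) and -0.23 at 6 h (95% interval -0.53 to 0.07, edgeR adjusted p = 0.231). With library size alone as the scale, the 6 h value was 0.13.

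Nupr1 (chr7:126623249-126630861, minus strand) encodes a small chromatin-associated stress protein. Its CPM was 9.92 and 9.16 in the controls, 10.97 and 9.88 after 3 h, then 8.44 and 5.82 after 6 h. The 3 h libraries overlapped control, and the 6 h libraries were below the other 4. Its log2 fold change at 6 h was -0.42 against control (95% interval -0.98 to 0.15, edgeR adjusted p = 0.237) and -0.54 against 3 h (95% interval -1.10 to 0.01, edgeR adjusted p = 0.282).

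Stc2 and Vldlr, which encode a secreted glycoprotein and a lipoprotein receptor, had few counts. Stc2 (chr11:31357307-31370074, minus strand) held 45 and 21 counts in the controls, 26 and 39 after 3 h, then 66 and 21 after 6 h, or 3.33 and 2.56, 1.68 and 2.25, and 2.18 and 0.804 CPM. The control libraries were the highest on the CPM scale, and the 6 h libraries differed from each other by more than the 3 h ones. Its log2 fold change at 6 h was -0.98, with a 95% interval of -2.25 to 0.28 (edgeR adjusted p = 0.218). Vldlr (chr19:27216484-27254231, plus strand) held 22 and 19 counts in the controls, 29 and 35 after 3 h, then 35 and 17 after 6 h, or 1.63 and 2.32, 1.87 and 2.02, and 1.154 and 0.651 CPM. Both 6 h libraries were below the other 4. On the log2 scale the change at 6 h was -1.10, with a 95% interval of -2.37 to 0.17 (edgeR adjusted p = 0.171).

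**Figure D3:**
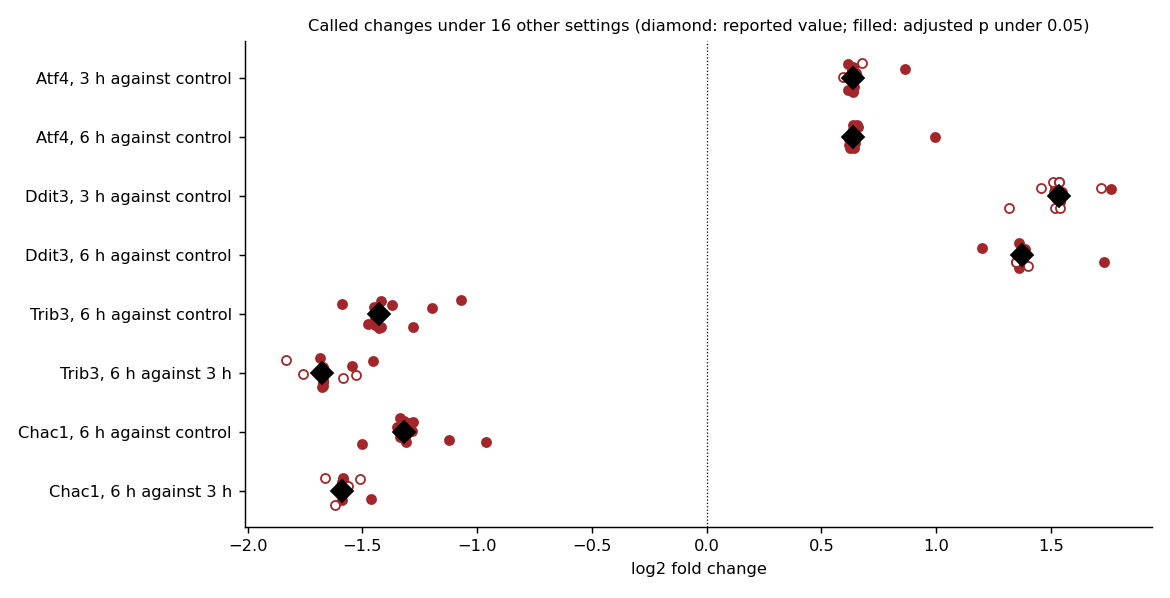
Log2 fold changes (horizontal axis) of the 8 called changes of Atf4, Ddit3, Trib3 and Chac1 as reported (diamonds) and under 16 other settings (circles); filled symbols had an adjusted p under 0.05. All points of a row keep the side of 0 of their diamond, and open circles mark settings under which the call was lost.

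The annotated mRNA leaders of the 10 genes were compared, since upstream start codons are the feature through which ATF4, ATF5 and CHOP are known to be translated under stress. In GENCODE M21 the leader of the principal transcript held 3 ATG triplets in Atf4, 2 in Atf5 and 2 in Ddit3. It held 1 in Asns, Nupr1 and Stc2, and 0 in Trib3, Chac1, Cebpb and Vldlr. At least 1 was present in 51% of 11580 tested genes with such a leader. The leaders were 594 bases long in Atf4, 373 in Atf5 and 186 in Ddit3, against a median of 180 over those genes. Among the 3 with more than 1 upstream ATG, Atf4 and Ddit3 rose and Atf5 did not pass. Both genes that fell, Trib3 and Chac1, had none, as did Cebpb and Vldlr, which passed in no comparison. These are descriptions of 10 chosen genes, with no test.

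Patterns close to those of Atf4 and Ddit3 were looked for among all tested genes, by Euclidean distance over the 6 libraries in log2 CPM centred on the control mean. Nearest to Atf4 were Fcgrt, Ginm1 and St3gal3, at distances of 0.09, 0.14 and 0.14. Their log2 fold changes at 6 h were 0.68, 0.59 and 0.73, and Ginm1 was the only 1 of the 3 called (edgeR adjusted p = 0.0451). Nearest to Ddit3 were Cdyl, Unk and Klhl25, at distances of 0.14, 0.31 and 0.33. All 3 were called at both times, with log2 fold changes of 1.45, 1.35 and 1.31 at 3 h and 1.36, 1.45 and 1.32 at 6 h. At 3 h none of the 3 nearest to Atf4 passed (edgeR adjusted p = 0.447 for Fcgrt, 0.117 for Ginm1 and 0.196 for St3gal3). All 6 were picked for likeness, so their calls support nothing.

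Other genes of the pathway were described by 7 lists, which hold 117 tested genes outside the 10. In total 7 of these were called higher and 7 lower at 3 h (12.0% called, against 4.9% of all genes), and 10 higher and 51 lower at 6 h (52.1% called, against 29% of all genes). Between 6 h and 3 h, 0 were called higher and 13 lower (11.1% called, against 1.64% of all genes). Over all genes, 3.6% were called higher and 1.3% lower at 3 h, and 14.8% higher and 14.3% lower at 6 h. With library size alone in place of TMM, which moved the median over all genes from 0.02 to 0.25 at 3 h, from 0.04 to 0.40 at 6 h and from 0.01 to 0.13 between them, 20 were called higher and 22 lower at 6 h. Without 6 h replicate 1 the count called at 6 h was 36 and without 6 h replicate 2 it was 26. At 3 h it was 3 without 3 h replicate 1 or 2, 7 without 6 h replicate 1 or 2 and 9 without control replicate 2. Between 6 h and 3 h it was 1 or 2 without any 1 of the 4 treated libraries and 24 without control replicate 1 or 2. Counts and directions below are relative to the TMM scale.

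Among genes for amino acid supply, the classical ATF4 targets, 13 of 21 were called lower at 6 h (against 14.3% of all genes) and 0 higher (against 14.8%), with a median log2 fold change of -0.73 against 0.04 over all genes. At 3 h 0 of 21 were called by edgeR, with a median of -0.35. At an unadjusted p under 0.05 edgeR had 1 higher and 9 lower, while DESeq2 called 3 and limma-voom 0. With library size alone, 2 were called higher and 7 lower at 6 h. Slc7a11, the cystine transporter, held 22 and 12 counts in the controls, 3 and 5 after 3 h, then 10 and 7 after 6 h, with -2.35 on the log2 scale at 6 h against control (edgeR adjusted p = 0.0399). This call was lost under 11 of the 16 other settings. Slc6a9, a glycine transporter, went from 6.44 ± 1.25 CPM in control to 9.62 ± 1.10 at 3 h and 1.87 ± 1.18 at 6 h (SD, n = 2), a log2 fold change of -1.76 at 6 h against control (edgeR adjusted p = 0.0179). Shmt2 and Phgdh, of the serine and glycine pathway, had log2 fold changes of -0.49 and -0.63 at 6 h (edgeR adjusted p = 0.0390 and 0.0266). Both were called no longer with library size alone, where they were -0.14 and -0.27. The list's count at 6 h was 6 without 6 h replicate 2. The calls of Slc6a9, Shmt2 and Phgdh were each lost without that library, that of Shmt2 also without either control library, and that of Phgdh also without control replicate 2 or 6 h replicate 1.

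Among genes for tRNA charging, 11 of 13 were called lower at 6 h (against 14.3% of all genes), with a median of -0.57. Xpot, the nuclear exporter of tRNA, had a log2 fold change of -0.85 (edgeR adjusted p = 0.00525), and the synthetase gene Nars one of -0.76 (edgeR adjusted p = 0.00646). Eprs and Iars were at -0.42 and -0.50 (edgeR adjusted p = 0.0219 and 0.0406). With library size alone 1 of the 13 was called, and the list median was -0.22. The call of Xpot held in every setting. Those of Nars, Eprs and Iars were lost on library size alone and without 6 h replicate 2, those of Eprs and Iars also without 6 h replicate 1, that of Eprs without control replicate 1, and that of Iars without control replicate 2 or either 3 h library. Without 6 h replicate 1 the count was 6, and without 6 h replicate 2 it was 1. At 3 h 0 were called by edgeR, although all 13 log2 fold changes were below 0; 7 of them had an unadjusted p under 0.05, and DESeq2 called 5 and limma-voom 0.

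Of the stress effectors, 2 of 17 were called higher at 6 h (against 14.8% of all genes) and 7 lower (against 14.3%). At 3 h 1 of the 17 was called, and it was higher (5.88% called, close to the 4.9% over all genes). This was Atf3, an ATF4-induced repressor of the bZIP class, whose course was like that of Ddit3. Its CPM was 3.04 and 1.59 in the controls, 7.62 and 8.72 after 3 h, then 7.59 and 6.09 after 6 h. The log2 fold change of Atf3 was 1.77 ± 0.35 (SE) at 3 h (edgeR adjusted p = 0.0274) and 1.51 ± 0.34 (SE) at 6 h (edgeR adjusted p = 0.0130). The 3 h call was lost with limma-voom, with the 4 libraries fitted alone and without control replicate 2 or any 1 of the 4 treated libraries, and the 6 h call without 6 h replicate 1. Pmaip1, which encodes the BH3-only protein NOXA, rose to 15.1 ± 4.38 CPM at 6 h from 5.38 ± 1.40 in control (SD, n = 2; log2 fold change 1.46, edgeR adjusted p = 0.00763). Vegfa, a growth factor gene, fell to 5.01 ± 0.473 CPM at 6 h from 21.2 ± 0.143 (SD, n = 2; log2 fold change -2.08, edgeR adjusted p = 0.000548). Gdf15, a stress-induced cytokine gene, was at -1.45 on that scale (edgeR adjusted p = 0.0187). The 6 h call of Vegfa held in every setting, that of Pmaip1 was lost without 6 h replicate 2, and that of Gdf15 without control replicate 2 or either 6 h library. Without 6 h replicate 1 the list had 5 calls at 6 h and without 6 h replicate 2 it had 4, against 9 in all libraries. On library size alone 4 were higher and 4 lower.

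**Figure D4:**
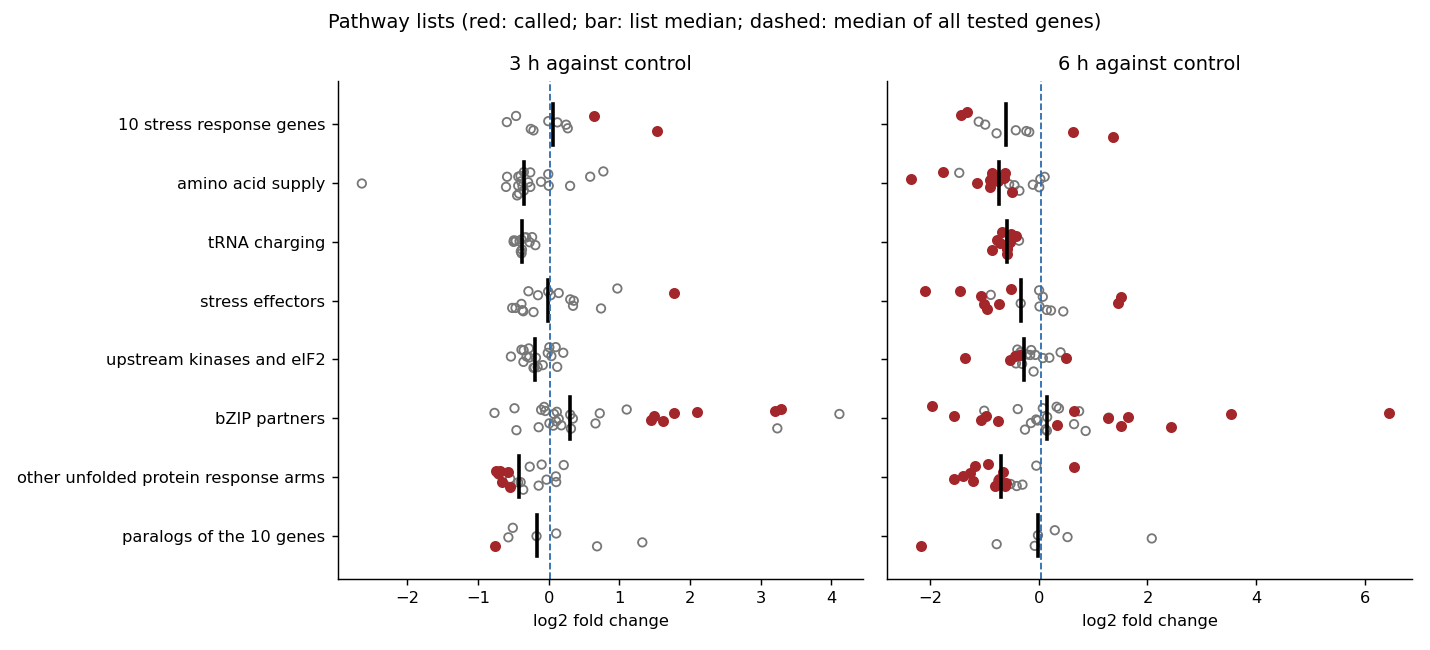
Log2 fold changes of the 10 genes and of 7 pathway lists at 3 h and at 6 h against control (horizontal axes); each point is a gene, red where called, the black bar is the list median and the dashed line the median of all tested genes. At 6 h the medians of the amino acid supply and tRNA charging lists are -0.73 and -0.57, while the bZIP list spreads to both sides.

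Another list covered the eIF2 kinases, eIF2 and its exchange factor. At 6 h 1 of 18 was higher and 4 were lower, or 27.8% called, close to the 29% over all genes. At 3 h 0 were called by edgeR (3 at an unadjusted p under 0.05), 2 by DESeq2 and 0 by limma-voom. At 6 h 2 were higher and 1 lower on library size alone. Gcn1l1, the activator of the amino acid-sensing kinase, had the lowest log2 fold change, -1.35 at 6 h (edgeR adjusted p = 0.000737). Ppp1r15b, which directs eIF2 dephosphorylation, was at -0.53 (edgeR adjusted p = 0.0182), a call lost without either 6 h library and on library size alone. Eif2s1, the phosphorylated subunit, was at -0.34 (edgeR adjusted p = 0.0324), but at 0.02 with library size alone, and its call was lost without control replicate 2 or any 1 of the 4 treated libraries. Eif2b2 was at 0.51 (edgeR adjusted p = 0.0411), a call lost without any 1 of the 6 libraries and under 3 other settings. The list's count fell to 1 without 6 h replicate 1 and to 1 without 6 h replicate 2. It was 2 without either 3 h library, and 3 without control replicate 2.

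Among bZIP genes, whose products can pair with ATF4, CHOP or C/EBP proteins, 7 of 29 were called higher at 3 h (against 3.6% of all genes) and 0 lower (against 1.3%). At 6 h 8 were higher (against 14.8%) and 5 lower (against 14.3%). Hlf rose from 0.591 ± 0.317 CPM to 7.36 ± 1.83 at 6 h (SD, n = 2; log2 fold change 3.53, edgeR adjusted p = 0.00145). Bach1, a repressor of antioxidant genes, was at -1.96 on the log2 scale at 6 h (edgeR adjusted p = 0.00110). Xbp1, the factor of the IRE1 arm, was at -1.55 (edgeR adjusted p = 0.00106). The list's count at 3 h was 3 without either 3 h library and without either 6 h library, and 3 with limma-voom. At 6 h it was 7 without 6 h replicate 1, and with library size alone 13 were higher and 4 lower.

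In the other arms of the unfolded protein response, 6 of 18 tested genes were called lower at 3 h (against 1.3% of all genes) and 0 higher (against 3.6%). At 6 h 12 were lower (against 14.3%) and 1 higher (against 14.8%), with a median of -0.69. Pdia6, a disulfide isomerase of the endoplasmic reticulum, went from 207 ± 8.69 CPM in control to 126 ± 2.36 at 3 h and 78.8 ± 2.09 at 6 h (SD, n = 2). Its log2 fold change was -0.71 at 3 h and -1.39 at 6 h (edgeR adjusted p = 0.0113 and 0.000171). Dnajb11, a co-chaperone, was at -0.60 at 6 h (edgeR adjusted p = 0.0219). Atf6, the membrane-bound sensor, was the gene called higher, at 0.64 (edgeR adjusted p = 0.0125). Its call and that of Dnajb11 were lost without either 6 h library, and that of Dnajb11 also without control replicate 2 and on library size alone. The 3 h call of Pdia6 was lost without either 3 h library, and its 6 h call held in every setting. The 3 h count was 0 without either 3 h library and 3 without control replicate 2, and with library size alone it was 3 at 3 h and 7 at 6 h. At 6 h it was 8 without 6 h replicate 1 and 7 without 6 h replicate 2.

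Of 7 tested paralogs of the 10 genes, 1 was called lower at 6 h (against 14.3% of all genes) and 0 higher (against 14.8%). Their log2 fold changes at 6 h ran from -2.16 to 2.08. At 3 h 1 was called lower (against 1.3%) and 0 higher (against 3.6%). That call was lost with library size alone, with a block for replicate number and with only the 4 libraries compared. It was also lost without any 1 of the 6 libraries. Between 6 h and 3 h 1 was called lower (against 1.18%) and 0 higher (against 0.455%). This later call was lost without any 1 of the 4 treated libraries. Trib1 and Trib2, the relatives of Trib3, did not pass at 6 h, at -0.07 and 0.53 (edgeR adjusted p = 0.884 and 0.555). Neither did Chac2, at 0.30 (edgeR adjusted p = 0.345). These 3 were named after their values were seen. Whether Trib3 differed from Trib1 or Trib2 was not tested.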

How the data were processed

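Each library has 1 table of raw counts by gene, deposited by the authors. Per the submitters' processing notes the genome build was mm10. The aligner, counting program, annotation, strand setting and any use of molecular identifiers are not given in the sources used here. Of 17485 rows, 1 is no mouse gene and was left out (3 counts over all libraries). RNA was isolated with TRIzol, and barcoded libraries of its polyadenylated part were pooled, per the labels' protocols. The design text mentions single cells, but each table holds 1 column of values and was treated as bulk. Groups and replicate numbers come from the titles.

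Genes were kept by edgeR's filterByExpr (minimum count 10, minimum total 15) and scaled by TMM. edgeR 4.0.16 (glmQLFit, glmQLFTest; R 4.3.3) was fitted to all 6 libraries with a mean per group. P-values were two-sided and Benjamini-Hochberg adjusted over 12755 genes. SE is the absolute log2 fold change over the root of F, and 95% intervals use a t distribution with 8.58 degrees of freedom. DESeq2 1.42.0 and limma 3.58.1 were alternatives. The fit was tested on simulated data. The 10 genes and the lists were chosen with earlier results of these data known. Of each list (amino acid supply, tRNA charging, stress effectors, upstream kinases and eIF2, bZIP partners, other unfolded protein response arms, paralogs), the genes called at 3 h or 6 h with the 2 highest and 2 lowest log2 fold changes at 6 h were named, and the 3 genes nearest to Atf4 and to Ddit3. Some genes that the rule names are not reported here. Gene positions are from GENCODE M21 (GRCm38), the same build. Promoters are from RefSeq, where all 10 symbols matched.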

Additional observations from a re-analysis of the deposited data

Results flagged for a closer look

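The direct comparison of the treated groups passed (edgeR adjusted p under 0.05) for Trib3, at -1.67 on the log2 scale (6 h minus 3 h), and Chac1, at -1.59. Among the other named pathway genes, the same comparison gave -2.34 for Slc6a9, -1.57 for Vegfa and -0.81 for Gcn1l1. It gave -1.20 for Bach1, -1.41 for Xbp1 and -0.68 for Pdia6. Over all genes, 1.18% were called lower in this comparison and 0.455% higher. Apart from Trib3 and Chac1, the genes had been named as the 2 lowest of a list at 6 h against control. That choice used the same 6 h libraries, so their direction here supports nothing. All 8 calls were lower at 6 h. Each of these calls was lost without 3 h replicate 1, without 3 h replicate 2 or without 6 h replicate 2, and each but that of Slc6a9 without 6 h replicate 1. With the replicate block those of Slc6a9, Gcn1l1 and Bach1 were lost, and with library size alone those of Gcn1l1 and Bach1. The groups of 2 libraries are too small to look for single outlying libraries.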

How the results depend on the processing

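The 8 called changes among the 10 genes gave 128 values under 16 other settings, of which 106 were called and 22 were not. The 22 changes that were not called gave 350 values, of which 3 were called. No called value changed sign. Values that were never called changed sign 23 times. Of the 10 genes, 1 was called at 3 h with limma-voom, 1 with the replicate block, 1 with only the 4 libraries compared and 1 after thinning to the smallest library. With 1 library left out it was 0 to 1 at 3 h, 3 to 5 at 6 h and 0 to 2 between 6 h and 3 h. Over all genes at 3 h, 1373 were called with library size alone (95.9% higher, against 73.4% with TMM), 1812 with no filter, 1384 with DESeq2 (55.4% higher) and 218 with only the 4 libraries compared. Between 6 h and 3 h these were 1058 with no filter, 667 with DESeq2, 508 with limma-voom, 126 with the replicate block and 563 with only the 4 libraries compared. With library size alone, 88.1% of calls at 6 h and 56.5% of those between 6 h and 3 h were higher, against 50.8% and 27.8%. With 1 library left out, 108 to 1033 were called at 3 h, 1312 to 3578 at 6 h and 14 to 595 between 6 h and 3 h. For the other pathway lists at 3 h, 32 were called with no filter, 30 with DESeq2, 9 with the replicate block and 7 with only the 4 libraries compared. Between 6 h and 3 h these were 27 with no filter, 25 with DESeq2, 22 with limma-voom and 24 with only the 4 libraries compared. With 1 library left out, the lists had 3 to 16 calls at 3 h, 26 to 54 at 6 h and 1 to 24 between 6 h and 3 h. The cause of these moves was not tested, except that leaving out a library leaves fewer samples, with the lone library of a group assumed to vary like the others. Eif2s1 at 6 h changed sign with library size alone, to 0.0195.

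In the main fit the replicate numbers were not used to pair the libraries. Whether libraries with the same number were prepared together is not settled by the following correlations. The deviations of libraries with the same number from their group means correlated at 0.0942, -0.0243 and 0.0172 across 12755 genes. With the replicate block, Ddit3 at 3 h was at 1.52 and not called (edgeR adjusted p = 0.0593), and Atf5 at 6 h was at -0.74 and called (edgeR adjusted p = 0.0477). The block changed no other call of the 10 genes. Depth limits Ddit3, Stc2 and Vldlr most, with 16 to 150 counts per library.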
